A study of Mus musculus with 16 samples.

Results

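The matrix metalloproteases (MMPs), the ADAMTS proteases with their ADAMTS-like relatives, and the tissue inhibitors of metalloproteases (TIMPs) were followed in the visceral fat of obese mice that had or lacked the hormone Fgf21 and were given rosiglitazone or vehicle. Members were chosen by name: every gene of the array whose platform symbol is Mmp, Timp, Adamts or Adamtsl followed by a number and at most 1 letter. The rule found 40 of the 16593 genes with a symbol, of which 20 were MMPs, 16 were ADAMTS or ADAMTS-like genes and 4 were TIMPs. Each gene was read by its brightest probe over all 16 arrays. The naming rule used no expression value, but it was set with earlier results of these data known. Of the 40 members, 25 were detected often enough to be tested, among 9543 genes tested in all.

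MMPs are zinc-dependent enzymes that are made as inactive precursors and, once activated, cut collagens, elastin, proteoglycans and many signalling proteins. ADAMTS proteases cut the large proteoglycans aggrecan and versican, trim procollagens or cleave von Willebrand factor, whereas the ADAMTS-like proteins lack the protease domain and bind the matrix. TIMPs block the active site of these enzymes, and in fat, where adipocytes enlarge inside a collagen mesh, the balance of the enzymes and their inhibitors is known to bear on how the depot expands.

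RNA came from epididymal white adipose tissue, the fat pad next to the epididymis, of mice aged 4-5 months on a mixed c57b6/sv129 background, all obese after 10 weeks of high-fat diet. The groups were wild-type mice on vehicle, wild-type mice on rosiglitazone, Fgf21 knockout mice on vehicle and Fgf21 knockout mice on rosiglitazone, the drug being an agonist of the nuclear receptor PPARγ given at 10 mg/kg over the last 2 weeks. Every mouse of all 4 groups, the vehicle groups included, carried the diet-induced obesity, and the labels give the knockout with no restriction to a tissue or cell type. Each group consisted of 2 pools of 2 mice, each pool read on 2 arrays, so n = 2 pools per group throughout and the spread between single mice was not measured. The labels call the pools biological replicates, and the design compares the drug within each genotype and the genotypes under each treatment. These comparisons share groups: the drug effect in wild-type mice and the genotype effect under vehicle share the wild-type vehicle pools, for example, so their values are set side by side and no likeness between them is read as a result.

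The probe for the deleted gene had signals of 319 to 358 in wild-type vehicle pools and 288 to 560 in wild-type rosiglitazone pools, and was detected on all 8 of those arrays. In knockout mice its signals were 129 to 155 under vehicle and 129 to 168 under rosiglitazone, with 1 of 4 arrays detected in each group. Between 47.6% and 51.0% of the 25697 probes were detected per array. The 7 tested adipocyte markers were detected in every pool, with a summed signal of 190821 to 207208. Wild-type rosiglitazone pool 1 stood apart from the other 7: on the first principal component, which held 48.2% of the variance, it lay at 68.5 and the others between -16.9 and -0.298. In that pool all 7 tested smooth muscle markers, all 4 tested epithelial markers and all 6 tested mast cell markers were at their highest of the 8 pools. The smooth muscle list summed to 87668 there against 14257 to 24448 in the other pools, and the epithelial list to 2428 against 331 to 1308. Knockout vehicle pool 2 had the highest value of all 5 tested liver markers, and knockout rosiglitazone pool 2 had the lowest value of 7 of 8 mesothelial markers. Differences that involve the wild-type rosiglitazone group are therefore also given without its pool 1 for the members it moved most.

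The promoter sequences printed here are those of Timp4, the member with the largest difference under rosiglitazone in knockout mice, and of the 4 tested members whose promoters hold the AP-1 motif TGANTCA, the element bound by Fos and Jun proteins and a known feature of inducible MMP genes. Sequences are from RefSeq on the GRCm38.p6 build, run 5′ to 3′ toward the start of the gene on its own strand, and have the AP-1 letters in capitals where there are any. Each MMP stretch is the 120 bases before the start and the Timp4 stretch is the 250 bases before it. For Mmp12 the stretch belongs to 1 of its 2 listed starts.
Timp4, chr6:115252206-115252455, minus strand: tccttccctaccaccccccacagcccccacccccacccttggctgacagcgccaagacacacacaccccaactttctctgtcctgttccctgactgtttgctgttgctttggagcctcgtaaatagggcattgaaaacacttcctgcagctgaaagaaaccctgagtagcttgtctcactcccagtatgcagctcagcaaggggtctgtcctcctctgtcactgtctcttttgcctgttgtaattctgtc
Mmp12, chr9:7347254-7347373, plus strand: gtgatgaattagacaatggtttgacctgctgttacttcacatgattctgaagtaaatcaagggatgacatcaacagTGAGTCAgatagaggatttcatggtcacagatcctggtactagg
Mmp1a, chr9:7464021-7464140, plus strand: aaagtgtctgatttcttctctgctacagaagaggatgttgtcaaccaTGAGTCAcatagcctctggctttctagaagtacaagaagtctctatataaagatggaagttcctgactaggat
Mmp3, chr9:7445702-7445821, plus strand: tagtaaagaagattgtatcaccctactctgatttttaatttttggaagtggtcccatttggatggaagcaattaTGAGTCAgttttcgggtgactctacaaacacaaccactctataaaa
Mmp13, chr9:7272394-7272513, plus strand: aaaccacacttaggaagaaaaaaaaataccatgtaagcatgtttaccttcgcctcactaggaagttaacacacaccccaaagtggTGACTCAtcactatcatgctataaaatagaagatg

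The first base of the AP-1 letters lay 44 bases before the start in Mmp12, 73 in Mmp1a, 46 in Mmp3 and 35 in Mmp13. Promoters of 300 bases (250 before and 50 after the start) were listed for 28 of the 40 members, 15 of them tested, and AP-1, searched on both strands, was present in 8 of these members. By promoter, AP-1 was in 8 of the 31 listed for members and in 7.81% of all 32851 promoters of the same length. The 8 members with AP-1 lie in a run of 10 neighbouring MMP genes on mouse chromosome 9. Of these 10 genes 9 are members, and Mmp8 was the only member of the run without it. None of the 19 listed members elsewhere in the genome held it. A PPAR response element, written as a pair of AGGTCA copies 1 base apart, was found in no member's promoter and in 0.0396% of all promoters. A single AGGTCA was found in 4 of the 28 members, in 4 of their 31 promoters, and in 16.3% of all promoters. These matches describe the letters in the window and are not evidence of binding.

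The same run of genes was for the most part below detection in this fat. A probe counts as detected on an array where its detection p against the array's negative controls is 0.05 or less. Of the 9 members of the chromosome 9 run, 5 (Mmp1b, Mmp7, Mmp8, Mmp10 and Mmp20) were detected on none of the 16 arrays, and Mmp12, Mmp13, Mmp3 and Mmp1a were tested. Over all 40 members, 17 were detected on every array, 8 on 4 to 15 arrays, 5 on 1 to 3 arrays and 10 on none. The other 5 members detected on none were Mmp16, Adamts3, Adamts12, Adamts17 and Adamts18. Mmp24, Adamts13, the von Willebrand factor protease, Adamts8, Mmp21 and Adamts20 were detected on 1 to 3 arrays and were not tested. Testing required detection on at least 4 arrays, which let 12 MMPs, 9 ADAMTS or ADAMTS-like genes and all 4 TIMPs through. Not being detected sets only an upper limit on the signal and does not show that a gene is off.

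**Figure D1:**
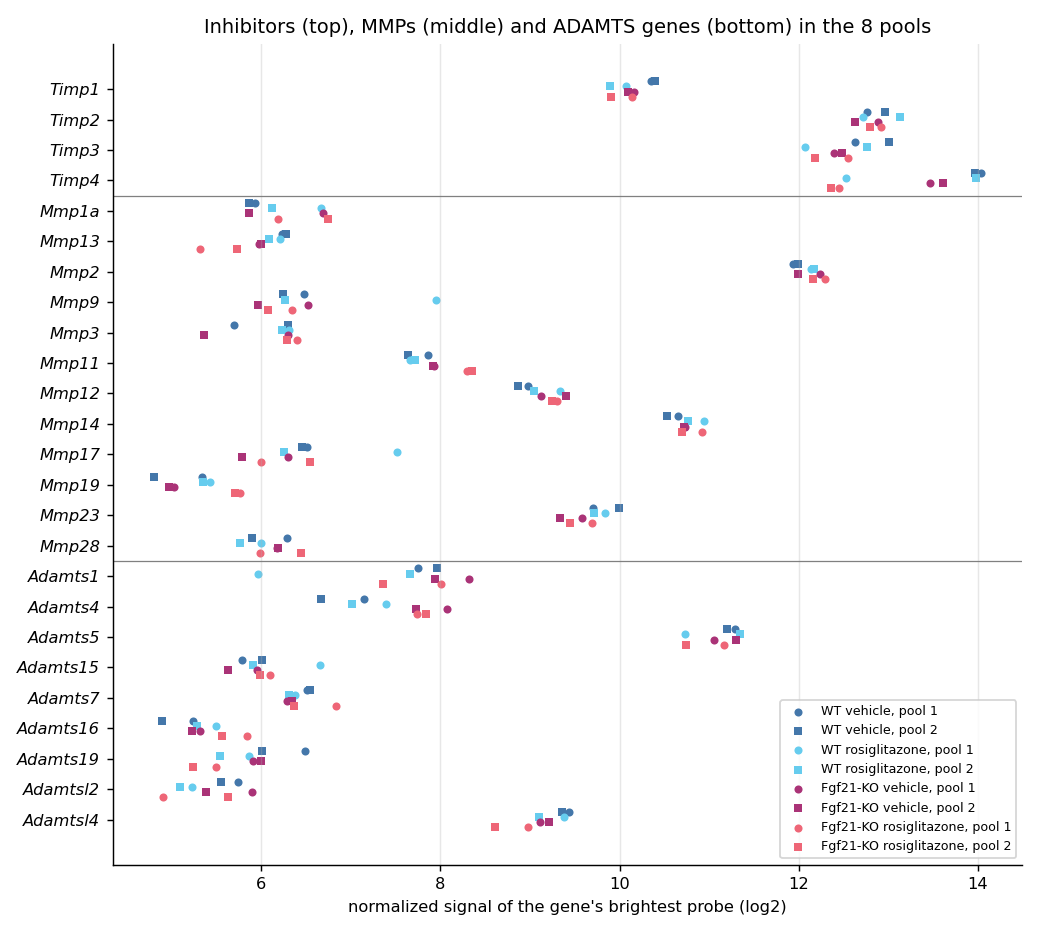
Normalized log2 signal (horizontal axis) of the 25 tested members (rows) in each of the 8 pools; colour gives the group and shape the pool number, each point being the mean of 2 arrays. Signals of different genes come from different probes and are not comparable along the axis; within a row, Timp4, Adamts1 and Mmp9 show wild-type rosiglitazone pool 1 well away from its partner.

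In tests over all 13759 detected probes no member passed an adjusted p of 0.05 in any of the 4 comparisons of groups, in the interaction, or in the comparisons averaged over the other factor. Differences are therefore given as values with their standard errors (SE) and none is called a change. The counts over all probes were also 0 (0%) in 6 of these 7 tests and 3 (0.0218%) in the genotype comparison averaged over treatments. With 2 pools against 2, an exact permutation test cannot give a two-sided p below 0.333.

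Under rosiglitazone in wild-type mice, 12 tested members were higher and 13 lower, with a median log2 difference of -0.06 against 0.01 over all probes. At an unadjusted p under 0.05 there were 0 members higher, where 4.48% of all probes were, and 2 lower, where 3.83% were. The 2 rosiglitazone pools lay wholly above the vehicle pools for 6 members, which is 24% of the 25 against 17.6% of all probes, and wholly below for 6 members, also 24%, against 17.3%. By family the 12 MMPs had a median of 0.27 with 8 higher and 4 lower, the 9 ADAMTS and ADAMTS-like genes -0.19 with 3 higher and 6 lower, and the 4 TIMPs -0.40 with 1 higher and 3 lower. Without wild-type rosiglitazone pool 1 the medians were 0.04 for the MMPs, with 6 higher and 6 lower, -0.20 for the ADAMTS and ADAMTS-like genes, and -0.04 for the TIMPs.

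Under rosiglitazone in knockout mice, 14 tested members were higher and 11 lower, with a median of 0.03 against 0.00 over all probes. At an unadjusted p under 0.05 there were 2 members higher (2.83% of all probes) and 3 lower (2.80% of all probes). The pools did not overlap for 5 members with rosiglitazone higher, 20% of those tested against 22.9% of all probes, and for 4 with rosiglitazone lower, 16% against 21.1%. The medians were 0.11 for the MMPs, with 10 of 12 higher, -0.22 for the ADAMTS and ADAMTS-like genes, with 6 of 9 lower, and -0.09 for the TIMPs, with 3 of 4 lower. The members that passed the filter only in the groups where they are high count in these numbers, which are given as a description.

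Between genotypes under vehicle, 9 members were higher and 16 lower in the knockout, with a median of -0.10 against -0.01 over all probes. At an unadjusted p under 0.05 there was 1 member higher (2.33% of all probes) and 0 lower (2.43% of all probes). The knockout pools lay wholly below the wild-type pools for 9 members, 36% against 22.5% of all probes, and wholly above for 5, 20% against 20.4%. All 4 TIMPs had lower means in the knockout, with a median of -0.31 and no overlap for 3 of them.

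Between genotypes under rosiglitazone, 13 members were higher and 12 lower in the knockout, with a median of 0.04 against -0.01. At an unadjusted p under 0.05 there were 2 higher (7.75% of all probes) and 2 lower (8.10% of all probes). The pools did not overlap for 4 members higher in the knockout, 16% against 22.3%, and for 5 lower, 20% against 24.1%. The interaction, which asks whether the drug effect differs between genotypes, had 1 member at an unadjusted p under 0.05 in the positive direction (2.28% of all probes) and 0 in the negative (2.67% of all probes).

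**Figure D2:**
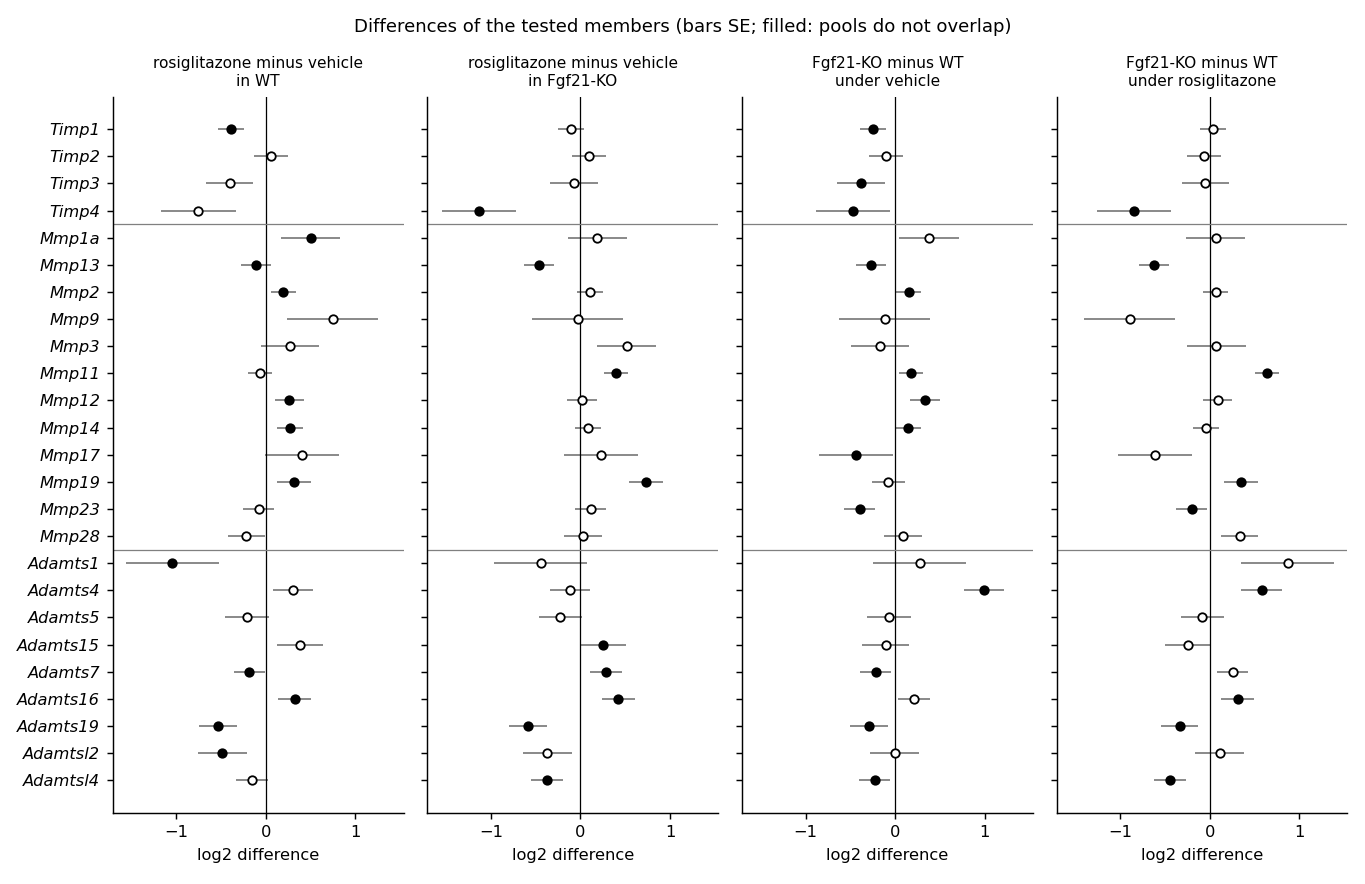
Log2 difference (horizontal axis) with its standard error for the 25 tested members in 4 comparisons: rosiglitazone minus vehicle in wild-type and in knockout mice, and knockout minus wild type under vehicle and under rosiglitazone. Filled points are members whose pools do not overlap between the groups; no member passed an adjusted p of 0.05.

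Among the inhibitors, Timp4, a TIMP known for its expression in heart and fat, had the largest differences. Its normalized log2 signals were 14.03 and 13.97 in wild-type vehicle pools, 12.52 and 13.97 in wild-type rosiglitazone pools, 13.46 and 13.60 in knockout vehicle pools, and 12.44 and 12.36 in knockout rosiglitazone pools. Both knockout rosiglitazone pools lay below every other pool, and the wild-type rosiglitazone pools split, with pool 2 at the vehicle level and pool 1 near the knockout rosiglitazone pools. On the non-normalized scale the knockout signals were 10261 to 12159 on the 4 vehicle arrays and 4595 to 5131 on the 4 rosiglitazone arrays.

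The rosiglitazone minus vehicle difference of Timp4 in knockout mice was -1.13 (SE 0.41), a fold of 0.456, with group means of 12.40 ± 0.06 and 13.53 ± 0.10 (SD, n = 2). The pools did not overlap, but the limma adjusted p was 0.872. Under the alternatives tried the difference ran from -1.24 to -1.06, and the lowest limma adjusted p was 0.189. In bulk tissue, fewer cells of the type that makes a transcript and less of it per cell cannot be told apart. In wild-type mice the difference was -0.75 (SE 0.41; limma adjusted p 0.587), and it was -0.03 without rosiglitazone pool 1. Without rosiglitazone pool 2 it was -1.48, which rested on pool 1 alone. Smooth muscle, epithelial and mast cell markers were high in pool 1, where Timp4 was low. The endothelial and macrophage medians of that pool relative to the other 7, -0.31 and -0.25, were the lowest of the 8 pools. In the knockout rosiglitazone pools, where Timp4 was also low, smooth muscle medians were -0.03 and -0.53. Epithelial medians there were -0.70 and -1.51, and both mast cell medians -0.23. In wild-type rosiglitazone pool 2 epithelial and mast cell medians were 0.83 and 0.65. The part of these markers in the Timp4 values was not tested.

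The interaction for Timp4 was -0.38 (SE 0.59; limma adjusted p 0.878). It was -1.10 without wild-type rosiglitazone pool 1 and 0.35 without pool 2, so its sign depended on which of these pools was used. Knockout minus wild type was -0.47 (SE 0.41) under vehicle and -0.84 (SE 0.41; limma adjusted p 0.351) under rosiglitazone, in both cases with no overlap of pools. Without wild-type rosiglitazone pool 1 the difference under rosiglitazone was -1.57, which rested on pool 2 alone. Without pool 2 it was -0.12, which rested on pool 1 alone. The SD of Timp4 between repeat arrays of a pool was 0.0867. Between pools it was 0.05 to 0.10 in 3 of the groups and 1.02 in wild-type rosiglitazone mice.

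Timp1, a secreted inhibitor made by stromal and inflammatory cells, had log2 signals of 10.35 and 10.39 under vehicle and 10.07 and 9.89 under rosiglitazone in wild-type mice. In knockout mice they were 10.16 and 10.09 under vehicle and 10.14 and 9.90 under rosiglitazone. The wild-type vehicle pools were thus the highest of the 8, and the knockout groups overlapped each other. The difference under rosiglitazone in wild-type mice was -0.39 (SE 0.15; limma unadjusted p 0.0324, adjusted p 0.571), and in knockout mice it was -0.10. A second Timp1 probe gave -0.55 and -0.19 for the same differences.

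Timp3, which is held in the matrix and also inhibits aggrecanases and ADAM proteases, had log2 signals of 12.63 and 13.01 in wild-type vehicle pools, 12.07 and 12.76 in wild-type rosiglitazone pools, 12.39 and 12.48 in knockout vehicle pools and 12.54 and 12.19 in knockout rosiglitazone pools. Wild-type rosiglitazone pool 1 was the lowest for this gene. The drug differences were -0.41 (SE 0.26) in wild-type mice, or -0.06 without that pool, and -0.07 in knockout mice. A second, dimmer Timp3 probe gave 0.48 for the knockout minus wild-type difference under rosiglitazone where the brightest gave -0.05, so the sign there depended on the probe. Without wild-type rosiglitazone pool 1 the brightest probe gave -0.40.

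Timp2, which inhibits MMPs and also takes part with Mmp14 in activating the Mmp2 precursor, had log2 signals of 12.76 and 12.96 in wild-type vehicle pools, 12.72 and 13.12 in wild-type rosiglitazone pools, 12.89 and 12.63 in knockout vehicle pools and 12.91 and 12.80 in knockout rosiglitazone pools. No group stood apart. Its differences were 0.06 and 0.10 under rosiglitazone in wild-type and knockout mice, and -0.10 in the knockout under vehicle, with overlapping pools each time. The lower TIMP means in knockout vehicle pools kept their sign under every scaling of the arrays tried. With no scaling and with median scaling, however, the median of all probes was itself -0.22 and -0.08 in that comparison. A kept sign in those settings is therefore not support. The Timp2 difference alone had the opposite sign without knockout vehicle pool 2. With all pools the knockout minus wild-type differences under vehicle were -0.25 (SE 0.15) for Timp1, -0.38 (SE 0.26) for Timp3 and -0.47 (SE 0.41) for Timp4.

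**Figure D3:**
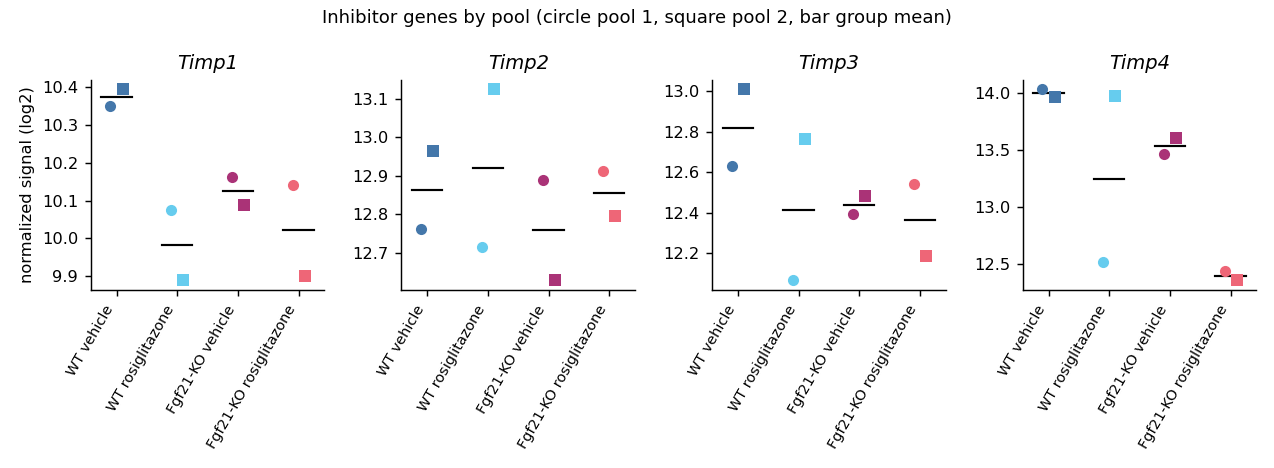
Normalized log2 signal (vertical axis) of Timp1, Timp2, Timp3 and Timp4 by group, with a point per pool (circle pool 1, square pool 2) and a bar at the mean of the 2 pools. Timp4 pools lie at 12.36 to 12.44 in knockout rosiglitazone mice and at 13.46 to 14.03 under vehicle, and the wild-type rosiglitazone pools are split at 12.52 and 13.97.

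Among the MMPs, Mmp2 and Mmp14, a gelatinase and the membrane protease that activates it, were detected on all arrays. Mmp2 had log2 signals of 11.93 and 11.99 in wild-type vehicle pools, 12.13 and 12.17 in wild-type rosiglitazone pools, 12.23 and 11.99 in knockout vehicle pools and 12.29 and 12.15 in knockout rosiglitazone pools. Mmp14 had 10.65 and 10.52, 10.94 and 10.76, 10.73 and 10.72, and 10.92 and 10.69 in the same order of groups. For both genes the wild-type vehicle pools were the lowest of the 8. Under rosiglitazone in wild-type mice Mmp2 was 0.19 (SE 0.14) higher and Mmp14 0.27 (SE 0.15) higher, both without overlap of pools, and Mmp14 was 0.18 higher without wild-type rosiglitazone pool 1. In knockout mice the corresponding differences were 0.11 and 0.08, and pools overlapped.

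Mmp9, the other gelatinase, had log2 signals of 6.48 and 6.24 in wild-type vehicle pools, 7.95 and 6.26 in wild-type rosiglitazone pools, 6.53 and 5.97 in knockout vehicle pools and 6.34 and 6.08 in knockout rosiglitazone pools. The value of 7.95 in wild-type rosiglitazone pool 1 stood above the other 7 pools, and no group was separate from the rest. The drug difference in wild-type mice was 0.75 (SE 0.51), and -0.10 without that pool. Without pool 2 in its place the difference was 1.59, which rested on pool 1 alone. Mmp17, another membrane-anchored MMP, was likewise highest in that pool, at 7.51 against 5.79 to 6.55 elsewhere.

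Mmp12, the macrophage elastase, had log2 signals of 8.98 and 8.87 in wild-type vehicle pools, 9.33 and 9.04 in wild-type rosiglitazone pools, 9.12 and 9.40 in knockout vehicle pools and 9.30 and 9.25 in knockout rosiglitazone pools. Only the wild-type vehicle pools lay below all others. The difference was 0.26 (SE 0.16) for the drug in wild-type mice, or 0.12 without rosiglitazone pool 1, and 0.34 (SE 0.16; limma adjusted p 1) for the knockout under vehicle. The macrophage marker list, 9 of 12 tested, had medians of -0.25 to 0.21 relative to the other 7 pools and summed to 24490 to 34053 over the 8 pools, and its part in the Mmp12 values was not tested.

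Mmp11, or stromelysin-3, an MMP that furin activates inside the cell, had the lowest p of any member under rosiglitazone between genotypes. Its log2 signals were 7.86 and 7.64 in wild-type vehicle pools, 7.66 and 7.71 in wild-type rosiglitazone pools, 7.93 and 7.92 in knockout vehicle pools and 8.30 and 8.36 in knockout rosiglitazone pools. All 4 knockout pools lay above all 4 wild-type pools, and the knockout rosiglitazone pools were the highest. Knockout minus wild type under rosiglitazone was 0.64 (SE 0.13; limma unadjusted p 0.00226, adjusted p 0.157).

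The drug difference of Mmp11 was 0.40 (SE 0.13; limma adjusted p 0.845) in knockout mice and -0.06 in wild-type mice, and the interaction was 0.46 (SE 0.19; limma unadjusted p 0.0465, adjusted p 0.827). Scaling bore on Mmp11: with no scaling between arrays, where the median of all probes was itself at -0.41 in that comparison, the knockout minus wild-type difference was 0.24 under rosiglitazone and -0.04 under vehicle. On the non-normalized scale its signals were 358 to 401 in wild-type and 380 to 418 in knockout rosiglitazone pools, ranges that overlap. Knockout minus wild type under rosiglitazone passed the threshold when all 16 arrays were fitted with the pool as a random block (limma adjusted p 0.00908). In that fit 666 of all 13759 probes passed. Leaving out single pools gave 0.61 to 0.67, and without a wild-type rosiglitazone pool its partner alone stood for the group.

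Mmp13, collagenase-3, whose AP-1 letters are printed above, had log2 signals of 6.24 and 6.28 in wild-type vehicle pools, 6.21 and 6.09 in wild-type rosiglitazone pools, 5.98 and 6.0 in knockout vehicle pools and 5.32 and 5.73 in knockout rosiglitazone pools. Every knockout pool lay below every wild-type pool, and the knockout rosiglitazone pools were the lowest. The probe read for Mmp13 was detected on 14 arrays, with only 2 of 4 detected in knockout rosiglitazone mice. Pool 1 of that group, at 5.32, lay below the lowest detected signals of its arrays, 5.68 and 5.65. It sets only an upper limit, so the size of differences that use this group is uncertain. The SD of Mmp13 between repeat arrays of a pool, 0.177, exceeded the 0.151 between pools. Knockout minus wild type was -0.62 (SE 0.17; limma unadjusted p 0.00747, adjusted p 0.214) under rosiglitazone and -0.27 under vehicle. The difference under rosiglitazone was -0.68 without wild-type rosiglitazone pool 2, a value that rested on pool 1 alone for that group. The drug difference in knockout mice was -0.46 (SE 0.17; limma adjusted p 0.866). A second Mmp13 probe, detected on 4 arrays, gave differences of the opposite sign between genotypes, 0.29 under vehicle and 0.38 under rosiglitazone.

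Mmp19, a secreted MMP of basement membrane substrates, was detected on 6 of 16 arrays, 1 and 2 of 4 in wild-type vehicle and rosiglitazone mice and 0 and 3 of 4 in knockout vehicle and rosiglitazone mice. It thus passed the filter mostly through the rosiglitazone groups, and its values are given as a description. It had log2 signals of 5.35 and 4.81 in wild-type vehicle pools, 5.43 and 5.35 in wild-type rosiglitazone pools, 5.03 and 4.98 in knockout vehicle pools and 5.76 and 5.71 in knockout rosiglitazone pools. The knockout rosiglitazone pools were the highest. The drug difference in knockout mice was 0.74 (SE 0.19, limma unadjusted p 0.00644, adjusted p 0.811), but no knockout vehicle array detected it. With the knockout vehicle signal raised to the detection limit, the rosiglitazone mean was 1.08-fold higher. That value carries no error and is a description. The SD of Mmp19 between repeat arrays of a pool, 0.480, exceeded the 0.194 between pools.

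Mmp3, or stromelysin-1, had log2 signals of 5.70 and 6.30 in wild-type vehicle pools, 6.31 and 6.23 in wild-type rosiglitazone pools, 6.30 and 5.36 in knockout vehicle pools and 6.40 and 6.29 in knockout rosiglitazone pools. Each vehicle group had a low pool, and the vehicle and rosiglitazone pools overlapped in both genotypes. The probe read for Mmp3 was detected on 13 arrays, with only 2 of 4 detected in knockout vehicle mice. Pool 2 of that group, at 5.36, lay below the lowest detected signals of its arrays, 5.57 and 5.60, and sets only an upper limit. The drug differences were 0.27 (SE 0.33) in wild-type and 0.51 (SE 0.33) in knockout mice, or 0.04 in knockout mice without that pool. The 2 other Mmp3 probes gave -0.25 and 0.43 in wild-type mice and 0.57 and 0.48 in knockout mice. Mmp23, a short MMP with a membrane anchor, had 9.71 and 10.00 in wild-type vehicle pools and 9.83 and 9.71 in wild-type rosiglitazone pools. In knockout mice Mmp23 had 9.58 and 9.34 under vehicle and 9.69 and 9.45 under rosiglitazone, below all wild-type pools. Knockout minus wild type was -0.39 (SE 0.17; limma unadjusted p 0.0573, adjusted p 1) under vehicle and -0.20 under rosiglitazone.

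**Figure D4:**
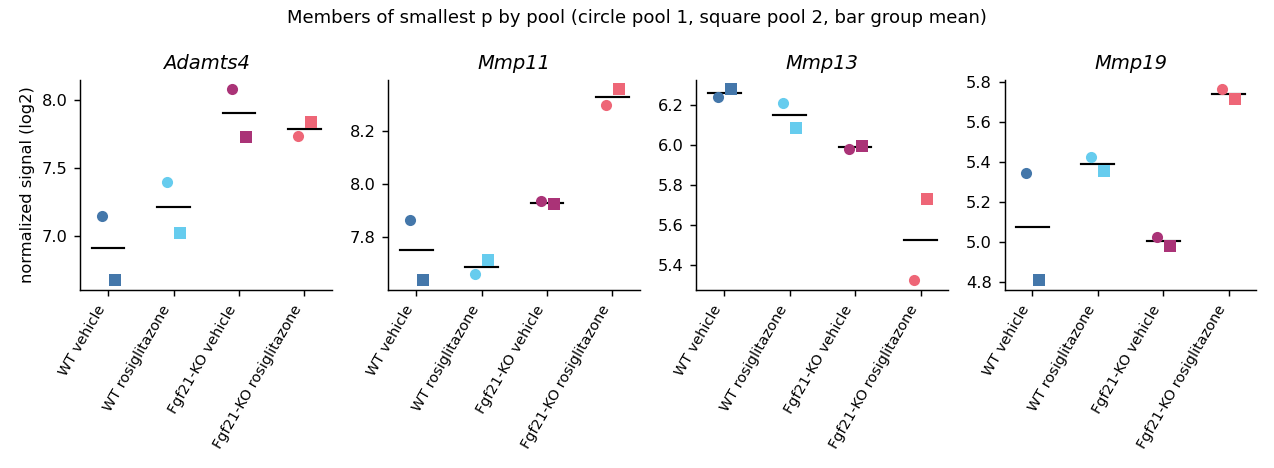
Normalized log2 signal (vertical axis) of Adamts4, Mmp11, Mmp13 and Mmp19 by group, with a point per pool (circle pool 1, square pool 2) and a bar at the mean of the 2 pools. All knockout pools lie above all wild-type pools for Adamts4 and Mmp11 and below them for Mmp13, and Mmp19 is highest in knockout rosiglitazone mice.

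Among the ADAMTS proteases, Adamts4, or aggrecanase-1, had the largest genotype difference under vehicle. Its log2 signals were 7.14 and 6.67 in wild-type vehicle pools, 7.40 and 7.02 in wild-type rosiglitazone pools, 8.08 and 7.73 in knockout vehicle pools and 7.74 and 7.83 in knockout rosiglitazone pools. All 4 knockout pools lay above all 4 wild-type pools. Knockout minus wild type was 1.00 (SE 0.23) under vehicle, a fold of 1.99 (limma unadjusted p 0.00336, adjusted p 0.649), and 0.58 (SE 0.23; limma adjusted p 0.299) under rosiglitazone.

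Averaged over treatments the Adamts4 difference was 0.79 (SE 0.16; limma unadjusted p 0.00185, adjusted p 0.151). In that average, 2 members (8%, against 4.56% of all probes) had all knockout pools higher, Adamts4 and Mmp11, and 2 (8%, against 5.40%) had all lower, Mmp13 and Mmp23. Across the alternatives the Adamts4 difference under vehicle ran from 0.57 to 1.23. It passed the threshold where all 16 arrays were fitted with the pool as a random block (limma adjusted p 0.039). In that fit 41 of all 13759 probes passed. The non-normalized Adamts4 signals overlapped, at 230 to 315 in wild-type and 292 to 356 in knockout vehicle pools.

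Adamts1, which cleaves versican and aggrecan, had log2 signals of 7.75 and 7.96 in wild-type vehicle pools, 5.97 and 7.66 in wild-type rosiglitazone pools, 8.32 and 7.94 in knockout vehicle pools and 8.01 and 7.36 in knockout rosiglitazone pools. Wild-type rosiglitazone pool 1 was the lowest by a wide margin. The drug difference was -1.04 (SE 0.52; limma unadjusted p 0.0862, adjusted p 0.587) in wild-type mice, where pools did not overlap, and -0.20 without pool 1. Without pool 2 it was -1.89, which rested on pool 1 alone. In knockout mice it was -0.45, with overlap. Smooth muscle, epithelial and mast cell markers were high in wild-type rosiglitazone pool 1, and their part in its low Adamts1 was not tested.

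**Figure D5:**
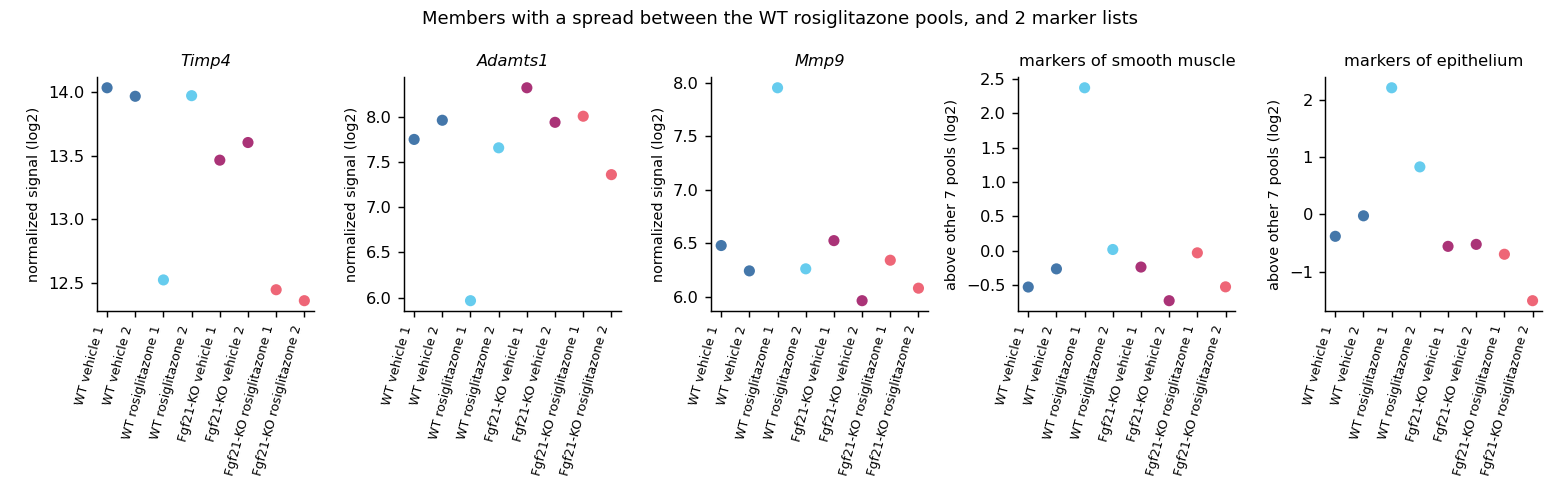
Normalized log2 signal (vertical axis) of Timp4, Adamts1 and Mmp9 in the 8 pools, and the median of the smooth muscle and epithelial marker genes, each taken relative to the other 7 pools (log2). Wild-type rosiglitazone pool 1 has a smooth muscle median of 2.37 and an epithelial median of 2.21, and it is lowest for Adamts1 at 5.97 and highest for Mmp9 at 7.95.

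Adamts5, the other main aggrecanase of the mouse, had log2 signals of 11.29 and 11.19 in wild-type vehicle, 10.73 and 11.34 in wild-type rosiglitazone, 11.06 and 11.30 in knockout vehicle and 11.16 and 10.74 in knockout rosiglitazone pools. The drug differences were -0.21 in wild-type mice, or 0.0988 without rosiglitazone pool 1, and -0.22 in knockout mice. Its low pools were wild-type rosiglitazone pool 1 and knockout rosiglitazone pool 2, and pools overlapped in both genotypes. Adamts7, which cleaves cartilage oligomeric matrix protein, had log2 signals of 6.52 and 6.55 in wild-type vehicle, 6.37 and 6.32 in wild-type rosiglitazone, 6.29 and 6.34 in knockout vehicle and 6.84 and 6.36 in knockout rosiglitazone pools. The rosiglitazone pools lay below the vehicle pools in wild-type mice, with a difference of -0.19 (SE 0.18), and above them in knockout mice, with a difference of 0.28. The lowest rosiglitazone and highest vehicle pool of the knockout were 6.36 and 6.34, and leaving out a knockout pool took that difference from 0.28 to between 0.0498 and 0.52. The interaction was 0.47 (SE 0.25, limma unadjusted p 0.100, adjusted p 0.827). The SD of Adamts7 between repeat arrays of a pool, 0.259, exceeded the 0.169 between pools.

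Adamts19 was detected on 11 of 16 arrays, none of them from knockout rosiglitazone mice. Its log2 signals were 6.49 and 6.01 in wild-type vehicle, 5.87 and 5.55 in wild-type rosiglitazone, 5.91 and 6.0 in knockout vehicle and 5.50 and 5.24 in knockout rosiglitazone pools. In both genotypes the rosiglitazone pools lay below the vehicle pools. The differences were -0.54 (SE 0.21; limma unadjusted p 0.0389, adjusted p 0.572) in wild-type and -0.59 (SE 0.21; limma unadjusted p 0.0281, adjusted p 0.866) in knockout mice. With the knockout rosiglitazone signal raised to the detection limit, the knockout vehicle mean was 1.22-fold higher. That value carries no error and is a description.

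Averaged over genotypes, Adamts19 differed by -0.56 (SE 0.15; limma unadjusted p 0.00739, adjusted p 0.511) under rosiglitazone and Mmp19 by 0.53 (SE 0.13; limma unadjusted p 0.00619, adjusted p 0.501). At an unadjusted p under 0.05 this average had 2 members higher (4.80% of all probes) and 4 lower (3.95% of all probes), and all 4 rosiglitazone pools lay above all 4 vehicle pools only for Mmp19 and below them only for Adamts19, 4% of members in each direction against 2.42% and 2.21% of all probes. Both genes passed the detection filter on part of the arrays only and mostly through the groups where they are high, so this non-overlap is a description and not support. Adamts19 had detection on 4 of 4 arrays in each vehicle group, 3 of 4 in wild-type rosiglitazone and 0 of 4 in knockout rosiglitazone mice.

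Adamtsl4, an ADAMTS-like protein that binds fibrillin microfibrils, had log2 signals of 9.43 and 9.36 in wild-type vehicle, 9.37 and 9.10 in wild-type rosiglitazone, 9.12 and 9.22 in knockout vehicle and 8.98 and 8.61 in knockout rosiglitazone pools. The knockout rosiglitazone pools were the lowest. Knockout minus wild type was -0.44 (SE 0.18; limma unadjusted p 0.0403, adjusted p 0.302) under rosiglitazone and -0.23 under vehicle. The members not described singly, Mmp1a, Mmp28, Adamts15, Adamts16 and Adamtsl2, lay between 4.89 and 6.74 over the 8 pools.

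The study's own comparisons are on the scale of group means. In the authors' deposited table Timp4 had a rosiglitazone to vehicle ratio of 0.446 in knockout mice, past the threshold used there, and of 0.74 in wild-type mice, not past it. In the authors' deposited table the knockout to wild-type ratio under vehicle was 0.632 for Timp4, 0.648 for Timp3, 0.723 and 0.669 for the 2 Timp1 features and 0.668 for Mmp23, all past that threshold. Those group means equalled means of non-normalized signals, and 92.4% of the 2661 features in the authors' deposited table had that ratio below 1, with a median of 0.771. Adamts2, a procollagen N-propeptidase, appeared in the authors' deposited table with 3 features, of which 1 was past the threshold with a ratio of 0.717 under rosiglitazone in knockout mice and another with a ratio of 0.723 between genotypes; it was not among the platform symbols and was not tested here.

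The partners of these enzymes were read from lists of related genes. No gene of any of the 5 lists passed an adjusted p of 0.05. Of the activators of MMP precursors, 5 of 10 were tested, and Plau, the urokinase that makes plasmin, was 0.23 (SE 0.15) higher in the knockout under vehicle. Of 11 other inhibitors and clearance factors, 6 were tested. Thbs2, thrombospondin-2, which binds Mmp2 and carries it to uptake through Lrp1, had log2 signals of 12.83 and 12.76 in wild-type vehicle, 12.02 and 12.60 in wild-type rosiglitazone, 11.21 and 12.03 in knockout vehicle and 10.72 and 10.46 in knockout rosiglitazone pools. The knockout rosiglitazone pools were the lowest, and knockout minus wild type was -1.72 (SE 0.31; limma unadjusted p 0.000892, adjusted p 0.130) under rosiglitazone and -1.17 (SE 0.31; limma adjusted p 0.755) under vehicle.

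Of 9 ADAM proteases, the membrane-bound cousins of the ADAMTS family, 8 were tested. Adam12 was 0.93 (SE 0.20; limma adjusted p 0.162) higher in the knockout under rosiglitazone and 0.45 under vehicle. Adam33 was 0.61 (SE 0.15) higher under rosiglitazone in wild-type mice and its difference in knockout mice was -0.29, with an interaction of -0.90 (SE 0.22; limma unadjusted p 0.00458, adjusted p 0.827). Without wild-type rosiglitazone pool 1 the wild-type difference was 0.45 and the interaction -0.74. Of 7 cathepsins, 6 were tested, and Ctsd, a lysosomal protease, was 0.67 (SE 0.27) higher under rosiglitazone in wild-type mice, or 0.32 without rosiglitazone pool 1. Of 24 matrix substrates, 16 were tested, and 14 of these had higher means in knockout vehicle mice, 5 of them at an unadjusted p under 0.05 (2.33% of all probes), with a median of 0.13. The count of 14 rested on knockout vehicle pool 1. Against the wild-type vehicle mean, 14 of 16 were higher in pool 1 alone, with a median of 0.38. In pool 2 alone 7 of 16 were higher, with a median of -0.07. Col6a2, a chain of collagen VI, was 0.71 (SE 0.16; limma adjusted p 0.649) higher in the knockout under vehicle and 0.59 higher under rosiglitazone. Its difference under vehicle was 0.84 with knockout pool 1 alone and 0.58 with pool 2 alone.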

How the data were processed

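Illumina MouseRef-8 bead arrays measured 8 pools on 16 arrays. Per the file headers, the authors deposited probe intensities without normalization and detection p-values. The authors also deposited a normalized table and, per the file headers, a table of fold ratios of group means with p-values from an unpaired VAMPIRE test at a Bonferroni threshold of 0.05. A further 80 per-sample columns were not used. Intensities were background-corrected (limma nec on detection p-values, offset 16), log2-transformed, quantile-normalized and averaged over the 2 arrays of a pool in R 4.3.3 with limma 3.58.1. Probes detected (p 0.05) on at least 4 arrays were fitted with 4 group means (4 residual and 2.75 prior degrees of freedom), eBayes, and Benjamini-Hochberg adjustment over all 13759 probes; tests are two-sided. Scripts were tested on simulated data. Symbols come from the platform annotation: 23978 probes have 1 and 1719 none. The precision is limited by the number of pools. Deviations of same-numbered pools correlated at 0.27 between the wild-type and knockout vehicle groups. Between the other pairs of groups they correlated at -0.10 to 0.11. No pairing was used in the main fit. Values in every pool are given for all TIMPs, a list of MMP and ADAMTS genes, and the 3 members of lowest p in each comparison; others are given by ranges, and Mmp17 and Adamtsl4 were also named after their values were seen. Members and lists were chosen with earlier results of these data known. Of the planned motif searches, that in proteins was not run. Alternatives changed background correction, scaling, the filter, the model and the pools used.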

Additional observations from a re-analysis of the deposited data

Results flagged for a closer look

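The Adamts7 drug difference had opposite signs in the genotypes, -0.19 in wild-type and 0.28 in knockout mice (log2), with no overlap of vehicle and rosiglitazone pools in either. Neither difference passed the threshold (limma adjusted p 0.695 and 0.968), the knockout pools came as close as 6.36 and 6.34, and leaving out a knockout pool gave 0.0498 to 0.52. The SD of Adamts7 between repeat arrays of a pool, 0.259, exceeded the 0.169 between pools. The interaction was 0.47, with a limma adjusted p of 0.827, so the difference between the genotypes did not pass the threshold.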

How the results depend on the processing

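Of the values recomputed for named members, 1514 stayed within their error and on the same side of the threshold, 164 moved further and 14 passed the threshold where the main value did not. As no named member was called at first, no call could be reversed. Probes called in the 7 tests (0, 0, 0, 0, 0, 0 and 3; order as follows: drug in wild-type mice, drug in knockout mice, genotype under vehicle, genotype under rosiglitazone, interaction, drug averaged, genotype averaged) varied as follows. A nec offset of 50 gave 1 for the drug in wild-type mice, 2 and 5 for genotype under vehicle and under rosiglitazone, and 13 for genotype averaged. No background correction, and likewise the authors' normalized table, gave 2, 3, 1 and 6 in these tests. Median scaling gave 1, 57 (rosiglitazone) and 26 (averaged), with member medians of -0.20 for genotype under rosiglitazone, -0.0848 for the interaction and -0.13 for genotype averaged. No probe filter gave 5 for genotype averaged. Only probes detected on all 16 arrays gave 1, 2, 1 and 9, and a member median of 0.0193 for genotype averaged. All 16 arrays with the pool as a random block gave 61, 13, 41, 666, 22, 20 and 535 in order, with 1, 1 and 2 members called for genotype under vehicle, under rosiglitazone and averaged. Trend and robust settings gave 2, 3, 13 and 39. Fitting only the groups compared gave 2 for genotype under rosiglitazone. The replicate block, by pool number, gave 0 for genotype averaged and called no member. No scaling between arrays, chosen after seeing the data, gave 2974 probes and 4 members for genotype under rosiglitazone. For genotype averaged it gave 3699 and 8. Member medians were 0.10, -0.29, -0.43, -0.17, 0.15 and -0.32 (drug in wild-type mice, genotype under vehicle and rosiglitazone, interaction, drug and genotype averaged). All probes shifted in these tests by 0.18, -0.22, -0.41, -0.20, 0.07 and -0.31. Timp4 (-1.29), Mmp13 (-0.88) and Mmp23 (-0.67) were among the members called there for genotype under rosiglitazone. Counts with no scaling, in the 16-array fit and in the leave-out fits are out of 13759 probes and 25 members. They are not read as a result about the members. Leaving out each pool in turn gave 0 to 2702 probes and 0 to 4 members for the drug in wild-type mice, 0 to 3391 and 0 to 5 for genotype under rosiglitazone, 0 to 1702 and 0 to 1 for the interaction, 0 to 1836 and 0 to 4 for the drug averaged, and 0 to 2755 and 0 to 6 for genotype averaged; the highest counts all came without wild-type rosiglitazone pool 2, where pool 1 alone stood for its group and was assumed to vary like the others. Without pool 1 the counts were 60 and 1 for genotype under rosiglitazone and 123 and 1 averaged. Member medians ran from -0.0637 to 0.0441, -0.0326 to 0.0864, -0.19 to 0.0508, -0.0815 to 0.10, -0.11 to 0.10, -0.0021 to 0.11 and -0.0982 to 0.0124 in the order of the tests. Causes were not tested. Signal over background limits Mmp19, Adamts19 and the other members detected on some arrays only.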
